A study of Homo sapiens with 6 samples.

Results

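The 10 genes described here encode 5 growth factors of the EGF family (AREG, EREG, HBEGF, TGFA and BTC), 3 ERBB receptor tyrosine kinases (EGFR, ERBB2 and ERBB3) and 2 proteins that restrain these receptors (ERRFI1 and LRIG1). They were chosen by gene symbol among the 23228 genes of the count tables, with earlier results of these data known. All 10 were present and were among the 13408 genes with enough reads to be tested. The libraries came from HEC-1-A, a single established human endometrial adenocarcinoma cell line cultured in McCoy's 5A medium with 10% fetal bovine serum. For 24 h the cells received either vehicle (control, n = 3) or 20 µM SMIP34 (n = 3), a small molecule that binds PELP1, a coregulator of nuclear receptors and a scaffold of the Rix1 complex in ribosome assembly. Stranded mRNA libraries were sequenced as single reads and held 19562711 to 22014835 counts each. Neither the labels nor the methods say that the 3 libraries of a group came from separate cultures, so every p-value below measures the spread between these libraries, which may be technical.

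EGF family ligands are made as membrane-bound precursors and are released by metalloproteases of the ADAM family. A released ligand binds EGFR, or for BTC, EREG and HBEGF also ERBB4, and the bound receptor pairs with another ERBB receptor and signals through the RAS-ERK and PI3K-AKT cascades. ERBB2 has no known ligand of its own and acts as a partner, ERBB3 has a weak kinase and recruits PI3K, and the pathway is active in many epithelia and carcinomas, endometrium included.

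With SMIP34, RNA of the ligands EREG, HBEGF and TGFA rose, RNA of the ligand BTC fell, RNA of the receptor ERBB2 fell, and RNA of the receptor inhibitor LRIG1 rose. The changes were small, from a 10.9% rise of TGFA to a 37.9% rise of HBEGF among the genes that rose, and 10.6% and 22.4% decreases of ERBB2 and BTC. Tested with the quasi-likelihood method of edgeR, 4 of the 10 genes were higher at an adjusted p under 0.05, beside 17.4% of all genes tested, and 2 of the 10 were lower, beside 17.2% of all genes tested. In either direction that is 6 of 10, beside 34.6% of all genes tested. These shares describe genes chosen with earlier results known, and no test was run over the 10. With the additional requirement of an absolute log2 fold change over 0.5, the limit used for calls in the study, 0 of the 10 passed, beside 3.31% of all genes tested. DESeq2 and limma voom also called 0 of the 10 with that limit. All 3 SMIP34 libraries lay above all 3 control libraries for 5 of the 10 genes, beside 22.6% of all genes tested, and below them for 2 of the 10, beside 21.9%. These are levels in bulk RNA, in which fewer cells expressing a gene and less RNA per cell cannot be told apart.

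**Figure D1:**
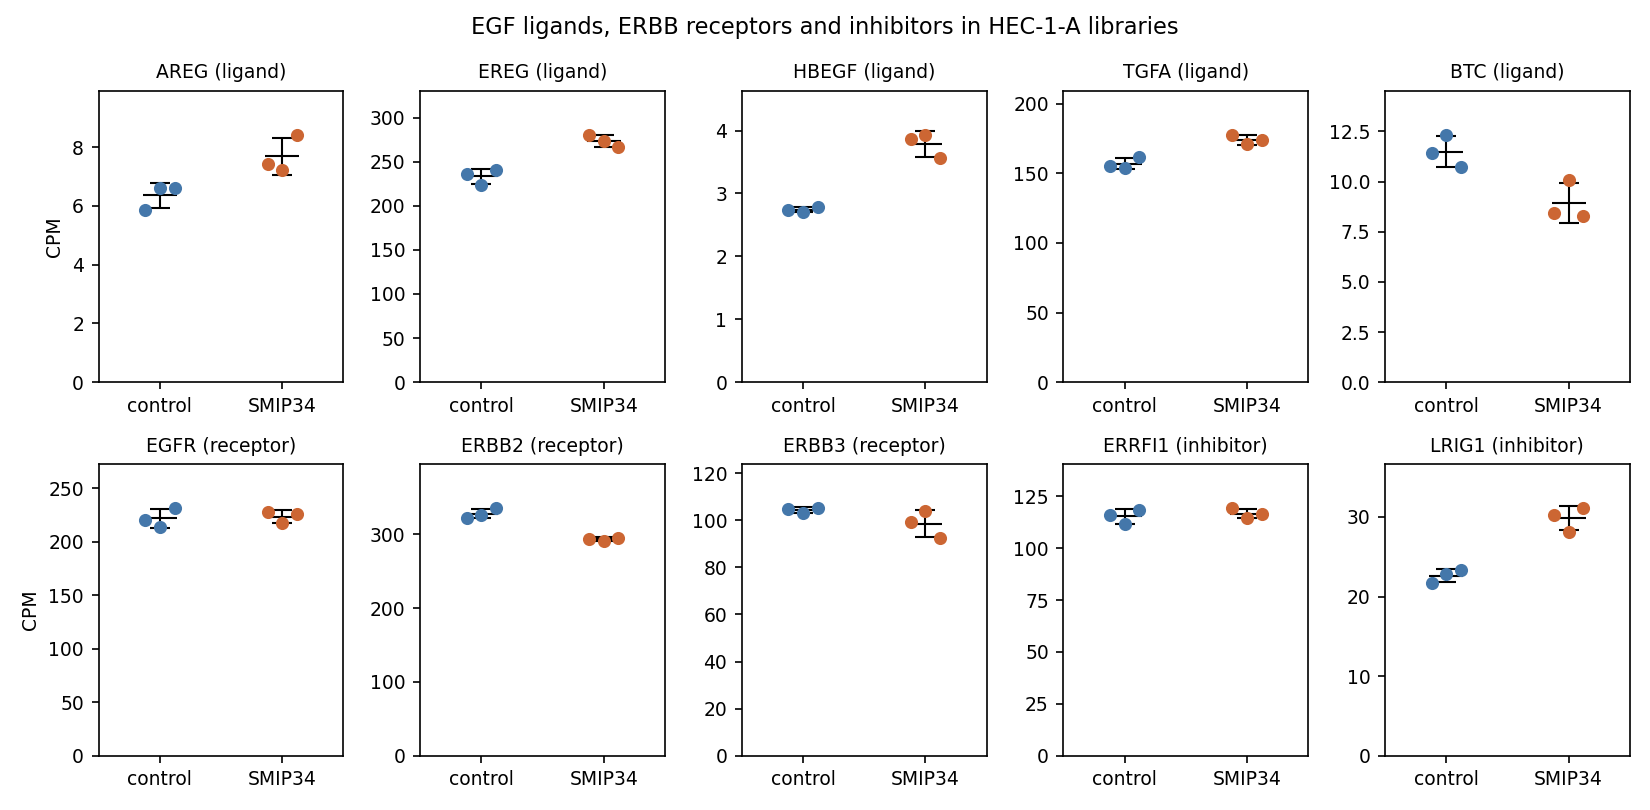
Scaled counts (CPM, y axis, from 0) of each of the 10 genes in the 3 control and the 3 SMIP34 libraries, one point a library, with the mean and SD of each group. The SMIP34 points of AREG, EREG, HBEGF, TGFA and LRIG1 sit above all control points, those of BTC and ERBB2 below, and the groups overlap for EGFR, ERBB3 and ERRFI1.

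Levels are given as CPM (counts per 1000000 counts of the library, after TMM scaling), and changes as the log2 fold change of SMIP34 over control with its standard error (SE) and 95% interval. EREG (epiregulin, a ligand of EGFR and ERBB4) was the most abundant ligand RNA. It measured 235.7, 223.6 and 240.9 CPM in control libraries 1 to 3, and 280.3, 273.1 and 266.2 CPM in SMIP34 libraries 1 to 3. Every SMIP34 library was above every control library, with the means at 273.2 ± 7.05 against 233.4 ± 8.89 CPM (SD, n = 3 each). The log2 fold change was 0.23 (SE 0.031, interval 0.16 to 0.29, adjusted p = 2.33e-06, edgeR's quasi-likelihood test), a rise of 17.1%.

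TGFA (transforming growth factor alpha, a ligand of EGFR) was the second ligand by level, with 3018 to 3899 counts a library. Its levels were 155.5, 154.0 and 161.5 CPM in the control libraries and 177.6, 170.8 and 173.8 CPM in the SMIP34 libraries. The 2 groups did not overlap, and the lowest SMIP34 library stood above the highest control. Its log2 fold change was 0.15 (SE 0.031, interval 0.085 to 0.21, adjusted p = 0.000509, edgeR).

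HBEGF (heparin-binding EGF-like growth factor, a ligand of EGFR and ERBB4) was the least abundant of the 10. Control libraries held 53, 59 and 58 counts, and SMIP34 libraries 85, 85 and 77. The exact 95% Poisson intervals of these counts, which cover counting error only, reached from 39.7 to 69.3 for the lowest control library and from 67.9 to 105.1 for each of the highest SMIP34 libraries. Even these intervals overlapped. Those of control library 2 (44.9 to 76.1) and SMIP34 library 3 (60.8 to 96.2) overlapped more widely. In CPM the controls were at 2.73, 2.71 and 2.79 and the SMIP34 libraries at 3.87, 3.93 and 3.56, and these values did not overlap. Its log2 fold change, 0.46 (SE 0.162, interval 0.13 to 0.80), had the largest absolute value of the 10, with an adjusted p of 0.0273 in edgeR's test. That call was lost with DESeq2 (adjusted p = 0.0902). It was also lost in edgeR's test without control library 1 (adjusted p = 0.0624), control library 2 (0.0687), SMIP34 library 1 (0.0728) or SMIP34 library 2 (0.0811), while without SMIP34 library 3 the log2 fold change was 0.51 and passed the fold limit.

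AREG (amphiregulin, a ligand of EGFR) was also higher in every SMIP34 library, at 7.43, 7.21 and 8.41 CPM against 5.87, 6.62 and 6.59 CPM in the controls. Its log2 fold change of 0.27 (SE 0.115, interval 0.033 to 0.51) had an adjusted p of 0.0714 in edgeR's test and did not pass. The gene annotation lists AREG at 2 places on chromosome 4 of hg19, bases 75310853 to 75320726 and 75480629 to 75490485, with 6 exons and 1238 exon bases in each. The 2 copies were identical at 1237 of 1238 exon bases in the genome sequence. Reads of AREG thus map to 2 places, and a read with several places of equal quality can be dropped by the minimum mapping quality of 2 or be counted in fractions, so the level of AREG is uncertain and may be too low. RPS18, a ribosomal protein gene listed at 6 places, stood at 16.4 CPM in the controls, against a median of 707.5 CPM for 75 ribosomal protein genes listed at 1 place. The cause of that difference was not tested, nor was any loss of AREG reads.

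BTC (betacellulin, a ligand of EGFR and ERBB4) was the only one of the 5 ligands to fall. It measured 11.4, 12.3 and 10.7 CPM in the control libraries and 8.43, 10.1 and 8.27 CPM in the SMIP34 libraries. SMIP34 library 2 came closest to the controls, and the groups did not overlap. This gave a log2 fold change of -0.37 (SE 0.10, interval -0.57 to -0.16, adjusted p = 0.00558, edgeR), and this call held without each library in turn, with log2 fold changes from -0.46 to -0.31.

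**Figure D2:**
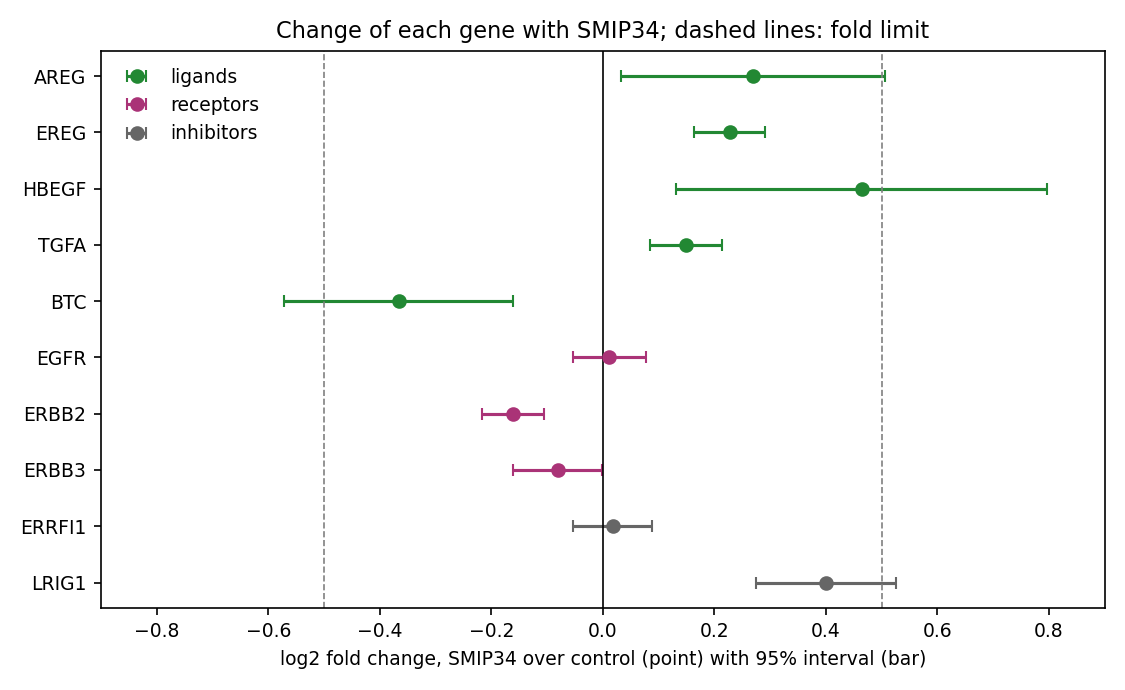
The log2 fold change of SMIP34 over control (x axis) for each of the 10 genes, as points with 95% intervals from edgeR's quasi-likelihood fit, coloured by role, with dashed lines at the fold limit of 0.5 in either direction. EREG, HBEGF, TGFA and LRIG1 lie to the right of 0 and BTC and ERBB2 to the left, and no point passes a dashed line.

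EREG, AREG and BTC are neighbours on chromosome 4. In hg19 EREG lies on the plus strand at bases 75230860 to 75254477, the 2 copies of AREG follow on the same strand, and BTC lies on the minus strand at 75671448 to 75719882. The count tables list no other gene between them in this span of 489023 bases. Within that stretch the plus-strand genes were higher with SMIP34, EREG past the test and AREG not, and the minus-strand gene was lower. EPGN (epigen), the family member just upstream at 75174204 to 75179307, had 1 count in all 6 libraries together. TGFA lies at chr2:70674417-70781105 and HBEGF at chr5:139712428-139726188, both on the minus strand.

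The upstream sequences of EREG and AREG, neighbours that were both higher in every SMIP34 library, and of HBEGF, the ligand with the largest log2 fold change, are shown 5′ to 3′ up to the first base of the gene. They are RefSeq promoter sequences (table of build GRCh38.p14) located by exact match in GRCh37, the same build as hg19. They cover chr4:75230612-75230859 for EREG and chr4:75310603-75310852 for AREG, both on the plus strand, and chr5:139726189-139726438 on the minus strand for HBEGF. Capitals mark matches, on either strand, to the TATA box letters TATAAA, the cyclic AMP response element (CRE) letters TGACGTCA and the AP-1 letters TGANTCA.
EREG: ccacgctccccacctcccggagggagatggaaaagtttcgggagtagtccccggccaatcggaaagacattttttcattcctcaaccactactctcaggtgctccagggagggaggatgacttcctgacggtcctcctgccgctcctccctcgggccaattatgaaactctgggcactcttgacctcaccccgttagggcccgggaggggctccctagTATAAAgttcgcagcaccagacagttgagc
AREG: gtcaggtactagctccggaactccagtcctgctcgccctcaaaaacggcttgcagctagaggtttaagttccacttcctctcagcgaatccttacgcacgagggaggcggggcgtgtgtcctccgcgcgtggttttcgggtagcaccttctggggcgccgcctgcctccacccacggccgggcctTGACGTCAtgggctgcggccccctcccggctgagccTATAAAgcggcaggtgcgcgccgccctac
HBEGF: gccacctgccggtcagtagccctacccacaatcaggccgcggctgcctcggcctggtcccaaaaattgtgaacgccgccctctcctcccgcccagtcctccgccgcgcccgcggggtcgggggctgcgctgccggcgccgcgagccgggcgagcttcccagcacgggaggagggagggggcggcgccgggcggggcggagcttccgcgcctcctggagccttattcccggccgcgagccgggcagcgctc
EREG and AREG each held TATAAA, starting 32 and 29 bases before the start given by the RefSeq promoter. That start is the gene's first base for AREG and lies 2 bases after it for EREG. AREG also held TGACGTCA, starting 65 bases before its first base. TATAAA was present in 11.6% and TGACGTCA in 1.84% of 34796 RefSeq promoters of 300 bases (250 before and 50 after the start). The AREG sequence matched at 2 places in this region, one before each copy. HBEGF held none of the 3 capitalised motifs. Its sequence was 76.4% G and C and held 5 GC boxes (GGGCGG on either strand, not overlapping the other motifs, present in 44.9% of all promoters), where AREG held 1 and EREG 0. None of the 3 held the AP-1 letters, which were in 7.73% of all promoters. The RefSeq promoters of TGFA, BTC, EGFR, ERBB2 and ERRFI1 were searched too. ERBB2, which fell, held the AP-1 letters as TGATTCA. TGFA, which rose, held none of the capitalised motifs, and neither did BTC, EGFR and ERRFI1. For ERBB3 and LRIG1 no promoter sequence was located. Whether any motif went with the changes was not tested. These matches describe the letters of the sequence and are not evidence of binding.

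Among the receptors, ERBB2 (on the plus strand at chr17:37844393-37884915) was the most abundant and fell. It measured 322.6, 326.3 and 335.0 CPM in the control libraries and 294.0, 290.3 and 295.5 CPM in the SMIP34 libraries. All SMIP34 libraries lay below all controls, with a spread within each group far smaller than the gap between the means of 328.0 ± 6.34 and 293.3 ± 2.65 CPM (SD, n = 3 each). ERBB2 thus had a log2 fold change of -0.16 (SE 0.027, interval -0.22 to -0.11, adjusted p = 4.12e-05, edgeR). The microRNA gene MIR4728 lies within ERBB2 on the same strand and shares exon bases with it, and 5 of 6 libraries held a fractional ERBB2 count.

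EGFR (on the plus strand at chr7:55086725-55275031) binds all 5 ligands described here. Its RNA was at 220.8, 213.5 and 231.1 CPM in the controls and 227.6, 217.1 and 226.0 CPM with SMIP34, and the groups overlapped. EGFR had a log2 fold change of 0.012 (SE 0.032, interval -0.053 to 0.077, adjusted p = 0.81, edgeR), and its sign turned under some alternatives (-0.0021 with upper quartile scaling, -0.049 with a correction for gene length). As a percentage the interval runs from -3.63% to 5.48%, and larger changes lie outside it.

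ERBB3 (on the plus strand at chr12:56473809-56497291), the receptor of neuregulins that recruits PI3K, was at 104.9, 103.0 and 105.0 CPM in the controls. With SMIP34 it was at 99.4, 104.0 and 92.4 CPM, so that SMIP34 library 2 lay within the control range and the others below it. The log2 fold change was -0.081 (SE 0.039, interval -0.16 to -0.0013, adjusted p = 0.109, edgeR) and did not pass. Without SMIP34 library 2 it was -0.12 and passed (adjusted p = 0.0339), as it did with the correction for gene length (-0.14, adjusted p = 0.00375).

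Of the inhibitors, LRIG1 (on the minus strand at chr3:66429221-66550845), a transmembrane protein that promotes the degradation of ERBB receptors, rose. It measured 21.7, 22.8 and 23.3 CPM in the control libraries and 30.3, 28.2 and 31.1 CPM in the SMIP34 libraries, without overlap. LRIG1 had a log2 fold change of 0.40 (SE 0.061, interval 0.27 to 0.52, adjusted p = 1.16e-05, edgeR), a rise of 31.9%. LRIG1 shares bases with SLC25A26 on the opposite strand, and the counting was stranded.

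ERRFI1 (MIG6, on the minus strand at chr1:8071779-8086393), a cytoplasmic protein that binds the kinase of EGFR and blocks its activation, was at 116.2, 111.5 and 118.5 CPM in the controls and 119.2, 114.5 and 116.5 CPM with SMIP34. The groups overlapped. ERRFI1 had a log2 fold change of 0.017 (SE 0.034, interval -0.053 to 0.088, adjusted p = 0.737, edgeR), with a negative sign (-0.0061) when control library 2 was left out. Thus the inhibitor LRIG1 rose, while for ERRFI1 the interval ran from -3.61% to 6.29%.

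**Figure D3:**
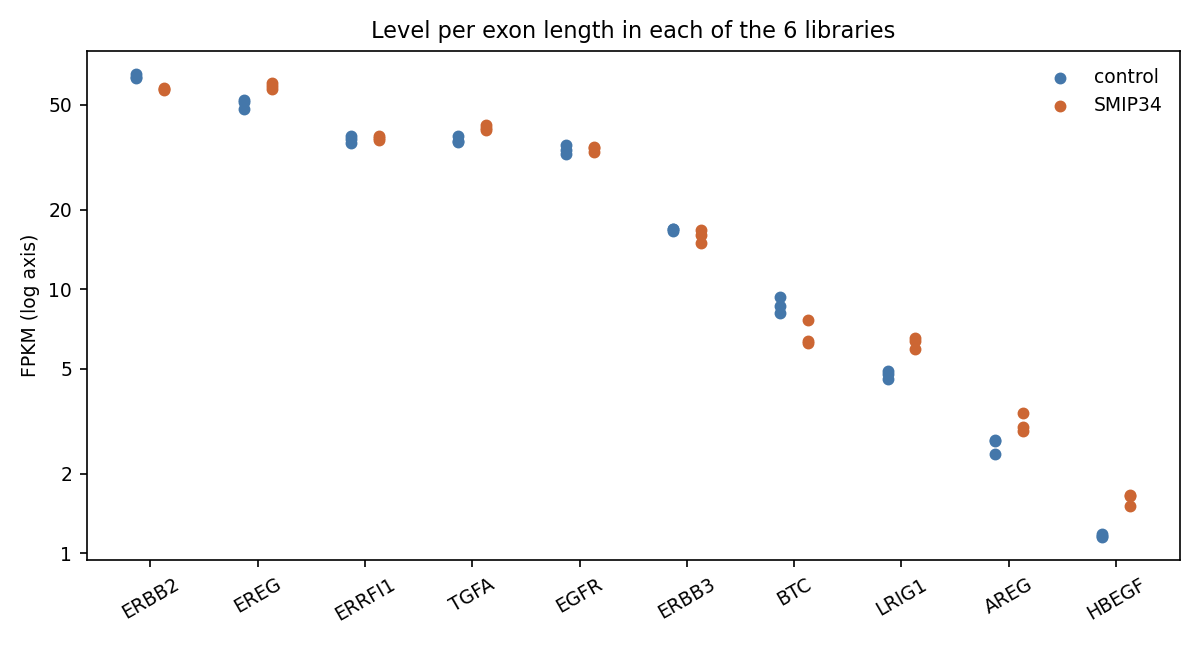
Level per exon length (FPKM, y axis, logarithmic) of the 10 genes in each library, one point a library, in the order of the control means. ERBB2 stands above EREG in the controls, their SMIP34 points overlap, and HBEGF is the lowest in both groups.

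Levels of different genes were compared only per exon length, as FPKM (CPM per kilobase of exon). In the controls the order of the mean levels was ERBB2 (64.0 ± 1.24 FPKM), EREG (50.4 ± 1.92), ERRFI1 (36.9 ± 1.13), TGFA (36.8 ± 0.939), EGFR (33.8 ± 1.35), ERBB3 (16.8 ± 0.182), BTC (8.69 ± 0.604), LRIG1 (4.75 ± 0.173), AREG (2.57 ± 0.171) and HBEGF (1.16 ± 0.0173), each as mean and SD of 3 libraries. The ranges of ERRFI1 and TGFA overlapped, and all other neighbours in this order were separate. The level of AREG is computed on the exon length of both copies and would be 5.14 FPKM on that of 1 copy, above LRIG1. In the SMIP34 libraries EREG (59.0 ± 1.52 FPKM) and ERBB2 (57.2 ± 0.516 FPKM) overlapped at the top. TGFA (40.8 ± 0.803 FPKM) then stood apart from ERRFI1 (37.3 ± 0.758 FPKM), and BTC (6.75 ± 0.756 FPKM) overlapped LRIG1 (6.26 ± 0.315 FPKM). Within each group the order of the 10 genes in TPM (transcript shares corrected for length) was the same as in FPKM. Both measures divide the same counts by the same exon length, so this is no separate check.

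The summed level of the 5 ligands was 99.6, 97.6 and 101.9 FPKM in the controls and 113.2, 111.3 and 109.5 FPKM with SMIP34. That of the 3 receptors was 113.5, 112.8 and 117.5 FPKM in the controls and 108.0, 106.5 and 106.9 FPKM with SMIP34. Ligand sums were thus higher and receptor sums lower in each SMIP34 library than in any control library. The ratio of ligand to receptor sums was 0.870 ± 0.0066 in the controls and 1.04 ± 0.013 with SMIP34 (SD, n = 3 each), 1.19 times as high, and stayed between 1.19 and 1.2 times without AREG or without any single library. These sums are a description of chosen genes and carry no test. They rest on few genes, since EREG and TGFA made up 87.5% of the ligand sum in the controls and 89.7% with SMIP34, and ERBB2 made up 55.8% and 53.4% of the receptor sum. AREG, at 2.57 FPKM in the controls, could move the ratio little. The ratio without EREG, TGFA or ERBB2 was not computed. The mean over the 5 ligands of the log2 level relative to the control mean lay between -0.025 and 0.013 in the control libraries and between 0.13 and 0.17 in the SMIP34 libraries, where each gene counted equally. The sums and this mean leave out the family ligands NRG1 and EGF, described further below. Their log2 fold changes were -0.49 and -0.44, and that of EGF did not pass the adjusted p.

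Within the groups, control library 3 was the highest of its group for 8 of the 10 genes and control library 2 the lowest for 6, and SMIP34 library 2 was the lowest of its group for 6. The part of these library differences in the results was not tested beyond leaving out each library.

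Among the other ligands and receptor of the family, only EGF and NRG1 had enough reads to be tested. NRG1 (neuregulin 1, a ligand of ERBB3 and ERBB4) fell from 20.1 ± 0.862 to 14.3 ± 0.702 CPM (log2 fold change -0.49, SE 0.074, adjusted p = 9.16e-06, edgeR). EGF itself was at 1.66 ± 0.127 CPM in the controls and 1.23 ± 0.208 CPM with SMIP34 (log2 fold change -0.44, adjusted p = 0.177, edgeR). EPGN, NRG2, NRG3, NRG4 and the receptor ERBB4 were below the filter, with 1, 13, 1, 0 and 4 counts over all 6 libraries together, so for the RNA of ERBB4 no change was detectable at this depth.

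**Figure D4:**
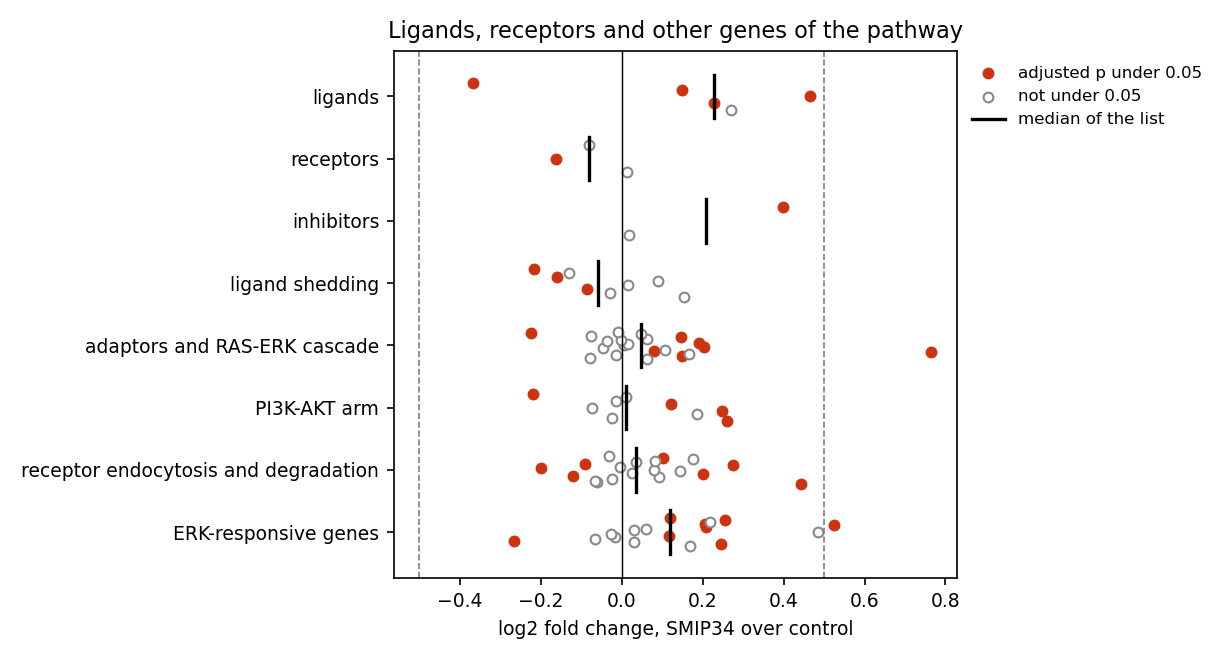
The log2 fold change of SMIP34 over control (x axis) for the tested ligands, receptors and inhibitors among the 10 genes and for the tested genes of the 5 lists of shedding, RAS-ERK, PI3K-AKT, endocytosis and ERK-responsive genes, one point a gene, filled where the adjusted p was under 0.05 in edgeR's test, with the list's median as a bar and dashed lines at the fold limit. Of the genes plotted, GAB2 and FOSL1 pass the right dashed line, and the medians plotted lie between -0.08 and 0.23.

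The other genes of the pathway were read from lists by role and described by counts and medians, beside a median log2 fold change of -0.0022 over all 13408 genes tested. In each list the genes with the highest and lowest log2 fold change are named, and further genes that passed, named where few did, were chosen after its values were seen. For the ERK-responsive genes those that did not pass are named too. Of 8 tested genes for the release of ligands, 3 fell, beside 17.2% of all genes tested, the other 5 did not pass, and the median log2 fold change was -0.058. FRMD8, a partner of the iRhom proteins that keep ADAM17 stable, fell by 0.22 on the log2 scale (63.8 ± 2.03 to 54.9 ± 1.64 CPM, adjusted p = 0.000253, edgeR). The iRhom gene RHBDF1 (log2 fold change -0.16, adjusted p = 0.00854, edgeR) and the protease ADAM10, which releases BTC (log2 fold change -0.086, adjusted p = 0.0158, edgeR), were the others. The highest log2 fold change was that of the protease ADAM8, at 0.15 (adjusted p = 0.622, edgeR).

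Of 21 adaptors and members of the RAS-ERK cascade, 6 rose and 1 fell, beside 17.4% higher and 17.2% lower among all genes tested, with a median log2 fold change of 0.047. GAB2, a docking protein that links receptors to PI3K and SHP2, rose from 4.96 ± 0.477 to 8.45 ± 0.753 CPM. Its log2 fold change of 0.76 (SE 0.122, adjusted p = 1.96e-05, edgeR) was the largest of this list and passed the fold limit. The ERK1 gene MAPK3 was the one that fell, from 112.0 ± 4.85 to 95.9 ± 2.98 CPM (log2 fold change -0.22, adjusted p = 3.7e-05, edgeR).

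Of 9 tested genes of the PI3K-AKT arm, 3 rose and 1 fell, beside the same 17.4% and 17.2%, with a median log2 fold change of 0.0099. The catalytic subunit gene PIK3CA rose from 30.2 ± 0.976 to 36.2 ± 1.92 CPM (log2 fold change 0.26, adjusted p = 0.000592, edgeR), as did the regulatory subunit gene PIK3R1 (0.25, adjusted p = 0.0011). The kinase gene AKT2 fell from 269.3 ± 6.58 to 231.3 ± 3.03 CPM (log2 fold change -0.22, adjusted p = 1.2e-06, edgeR).

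Of 19 genes for receptor endocytosis and degradation, 4 rose and 3 fell, with a median log2 fold change of 0.034. These shares are near the 17.4% higher and 17.2% lower of all genes tested, so the counts are no result about this list, and the values below describe single genes. CBL, the ubiquitin ligase that marks activated EGFR for degradation, rose from 50.9 ± 1.21 to 69.2 ± 0.799 CPM (log2 fold change 0.44, SE 0.041, adjusted p = 3.87e-09, edgeR). LRIG3, a relative of LRIG1, rose as well (log2 fold change 0.28, adjusted p = 0.00427, edgeR), and so did HGS, an endosomal sorting protein gene (0.20, adjusted p = 3.7e-05), and RAB5A, a gene of early endosomes (0.10, adjusted p = 0.021). RNF41 (NRDP1), the ubiquitin ligase of ERBB3, fell from 63.2 ± 3.21 to 55.0 ± 2.72 CPM (log2 fold change -0.20, adjusted p = 0.00139, edgeR). The endocytic adaptor genes EPN1 (-0.12, adjusted p = 0.00187) and SH3KBP1 (-0.091, adjusted p = 0.0399) were the others that fell.

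Of 17 tested genes known to respond to ERK signalling, 7 rose and 1 fell, beside 17.4% higher and 17.2% lower among all genes tested, with a median log2 fold change of 0.12. FOSL1, an AP-1 subunit, rose from 85.5 ± 1.76 to 122.9 ± 3.79 CPM (log2 fold change 0.52, SE 0.036, adjusted p = 8.96e-12, edgeR) and passed the fold limit. SPRY1, a feedback inhibitor of receptor tyrosine kinases, fell from 90.9 ± 3.36 to 75.6 ± 2.94 CPM (log2 fold change -0.27, adjusted p = 8.28e-06, edgeR). Of the 17 genes, 9 did not pass, namely DUSP4, DUSP6, SPRY2, SPRY4, SPRED2, SPRED3, ETV4, ETV5 and IER3. Their log2 fold changes ran from -0.067 for SPRY2 to 0.48 for SPRED3, which was at only 0.669 ± 0.263 CPM in the controls. RNA levels do not measure the activity of the kinases.

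Markers of epithelium were abundant in all libraries and those of other cell types nearly absent. The 7 epithelial markers summed to 3945 to 4066 CPM in the controls and 3882 to 3913 CPM with SMIP34, and 3 of the 7 fell and 1 rose, beside 17.2% lower and 17.4% higher among all genes tested, with CLDN4 the highest (log2 fold change 0.19, adjusted p = 2.45e-06, edgeR) and KRT19 the lowest (-0.17, adjusted p = 1.54e-05). The 12 markers of blood, endothelial and stromal cells summed to 8.60 to 9.53 CPM in the controls and 8.55 to 9.25 CPM with SMIP34, and CD3E was at 0 in every library, which allows up to 3 counts in each. Of the 4 that could be tested, COL1A1 rose from 2.96 ± 0.218 to 4.19 ± 0.346 CPM (log2 fold change 0.50, adjusted p = 0.0151, edgeR) and PDGFRB had the lowest log2 fold change (-0.54, adjusted p = 0.307).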

How the data were processed

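RNA of HEC-1-A cells was read in 6 libraries, 3 control and 3 SMIP34. The authors deposited estimated counts per gene, made with featureCounts v1.5.0-p1 per the file headers: exons of the UCSC hg19 annotation summed by gene, stranded (setting 2), minimum mapping quality 2, with reads at several places counted as fractions, so that 6.31 to 7.43% of the values were not whole. The submitters' processing notes name HISAT2 as aligner, whereas the methods name tophat2 and HTSeq. The labels name library kits of different makers.

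Counts were rounded and tested with edgeR 4.0.16 in R 4.3.3 (filterByExpr, TMM factors 0.988 to 1.01, quasi-likelihood F test on the group, Benjamini-Hochberg over 13408 genes). A call needed an adjusted p under 0.05 and, with the fold limit, an absolute log2 fold change over 0.5. The code was tested on simulated data. Alternatives were other scalings and filters, DESeq2 1.42.0, limma 3.58.1, the older quasi-likelihood method of edgeR, counts rounded down, offsets for gene length, a replicate block, other fold limits and leaving out each library. CPM, FPKM and sums carry no test. Depth limits the precision of genes with few counts, such as HBEGF.

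All 10 genes were described. In each other list the genes with the highest and lowest log2 fold change and those past the fold limit were named, and 1 gene that passed is counted but not reported here. Genes with a pattern most like that of a called member were to be named too, and none was since no member passed the fold limit. The members and lists were chosen with earlier results of these data known.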

Additional observations from a re-analysis of the deposited data

How the results depend on the processing

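EREG, TGFA, BTC, ERBB2 and LRIG1 kept their direction and an adjusted p under 0.05 in all 17 alternatives, HBEGF in 12 of 17. HBEGF was lost with DESeq2 and in 4 of 6 fits without a library, with log2 fold changes from 0.437 to 0.507 over the 6. AREG (0.299, adjusted p = 0.0476, edgeR) passed only with the gene length offsets, and its adjusted p reached 0.259 elsewhere. The sign of EGFR turned with upper quartile scaling (-0.00211), with the length offsets (-0.0485) and in 2 fits without a library (range -0.0146 to 0.0448), and that of ERRFI1 in 1 such fit (range -0.00611 to 0.0393). With no fold limit 4645 genes and 6 of the 10 were called, and with an absolute log2 fold change over 1, 104 genes. Without each library in turn 0 to 1 of the 10 passed the fold limit, HBEGF without SMIP34 library 3. Median log2 fold changes moved for the RAS-ERK list (0.024 with length offsets), the PI3K-AKT list (0.0284 with library size only, -0.00243 to 0.0314 without a library) and the ERK-responsive list (0.0917 with length offsets, 0.0964 to 0.152 without a library). For AREG the level was 5.14 FPKM on the length of 1 copy, an alternative chosen after seeing the data, as was the ratio without AREG. The cause of these shifts was not tested, apart from the fold limits and that length, which act by construction. The share of higher genes among those past the adjusted p was 44.7 to 58.6% over the scalings and 50.4% as reported.

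No effect shared by same-numbered libraries was visible: their deviations correlated at -0.028, 0.0334 and -0.0111. These correlations cannot show whether the cultures were paired. With the replicate block 453 genes were called in place of 444, and 4 of the 10 were higher, 2 lower and 0 past the fold limit. At an adjusted p under 0.05 the block left 2251 genes higher and 2181 lower, in place of 2339 and 2306, and changed the call of none of the 10. Its effect on single genes outside the 10 is not given here.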
